A study of Mus musculus with 4 samples.

Results

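The mouse genes named from Zfp600 to Zfp999 form the later-numbered share of the zinc finger protein genes of this species. All genes with such a symbol in the annotation of the array were taken, 133 of the 18193 genes that have a probe set with 1 symbol, and the expression level of a gene was read from its brightest probe set over 4 arrays. The genes were therefore taken by name and not by their signals, although earlier results of these data were known when the choice was made. A further 12 genes of this range (Zfp600, Zfp640, Zfp706, Zfp747, Zfp781, Zfp960, Zfp965, Zfp966, Zfp967, Zfp971, Zfp973 and Zfp981) were named only by probe sets that carry several symbols and were not counted. The 172 genes named Zfp1 to Zfp599 and all genes on the array served for comparison.

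The cells were macrophages drawn into the peritoneal cavity of C57BL6/J mice by thioglycollate, an irritant, and kept as the cells that attached to the dish. KO cells came from LysM Cre/+:Setdb1 fl/fl mice, in which Cre is made from the lysozyme promoter of myeloid cells, and WT cells from +/+:Setdb1 fl/fl mice, so that both genotypes carry the floxed Setdb1 alleles and only KO carries Cre. Cells of each genotype received lipid A, the active component of lipopolysaccharide that TLR4 senses, or vehicle for 4 h. The sample labels give 10 µg/ml of lipid A and the design text of the series gives 10 ng/ml. RNA of KO lipid A, WT lipid A, KO vehicle and WT vehicle was each hybridised to 1 Affymetrix mouse array, and the number of mice behind an array was not given. No difference therefore has a replicate check, and folds, counts and medians describe these 4 arrays without a test.

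Most genes of this family encode proteins with a row of C2H2 zinc fingers that reads DNA, and many also carry a KRAB domain. A KRAB domain recruits Trim28 (KAP1), and Trim28 brings Setdb1, the enzyme that trimethylates lysine 9 of histone H3 and so silences the bound site, often an endogenous retrovirus. The family has grown by local duplication, and its gene clusters themselves carry this mark in many cell types. The comparison asked whether these genes differed in level between macrophages with and without Setdb1. Which of the 133 proteins hold a KRAB domain is not annotated in the tables used here.

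All 133 genes matched a gene of the same symbol in the RefSeq gene table (GRCm38.p6). They lie on 19 chromosomes, with 33 genes on chromosome 7, 20 on chromosome 17 and 14 on chromosome 8. With a run defined as at least 4 of these genes with gaps of at most 500 kb, 52 of them stood in 8 runs, the longest of 13 genes on chromosome 17 between Zfp677 and Zfp945.

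RefSeq promoter windows of 300 bases, 250 before and 50 after the start of the gene, were found for 117 of the 133 genes. The motif CCAATCA, the binding sequence of the factor NF-Y, was present on either strand in 30 of these windows (25.6%), against 9.56% of the windows of 17491 protein-coding genes. The windows held a median of 13 CpG dinucleotides, as did those of all protein-coding genes. The 6 windows below are those of genes to which the results return. Zfp931 was lower in KO under both treatments, Zfp868, Zfp869, Zfp963 and Zfp866 are neighbours on chromosome 8 that differed in direction, and Zfp800 had the largest rise with lipid A among genes with both signals at or above the array medians, the limit of background defined below. All are on the minus strand of GRCm38.p6 and read 5′ to 3′ along the gene, at chr2:178078376-178078675, chr8:69625499-69625798, chr8:69716853-69717152, chr8:69774862-69775161, chr8:69749913-69750212 and chr6:28397956-28398255, and capitals mark matches to CCAATCA or its reverse complement.
Zfp931: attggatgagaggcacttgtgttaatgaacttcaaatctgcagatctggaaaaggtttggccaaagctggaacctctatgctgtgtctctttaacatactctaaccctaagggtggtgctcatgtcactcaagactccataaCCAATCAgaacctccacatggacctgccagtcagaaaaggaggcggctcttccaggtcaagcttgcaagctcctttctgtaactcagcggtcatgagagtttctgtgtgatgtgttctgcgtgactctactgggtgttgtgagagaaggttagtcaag
Zfp868: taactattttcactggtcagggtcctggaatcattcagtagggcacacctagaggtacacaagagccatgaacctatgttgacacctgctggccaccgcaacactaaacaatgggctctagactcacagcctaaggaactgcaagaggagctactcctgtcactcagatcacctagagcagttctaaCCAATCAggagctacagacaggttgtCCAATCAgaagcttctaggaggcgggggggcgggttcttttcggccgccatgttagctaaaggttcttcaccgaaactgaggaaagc
Zfp869: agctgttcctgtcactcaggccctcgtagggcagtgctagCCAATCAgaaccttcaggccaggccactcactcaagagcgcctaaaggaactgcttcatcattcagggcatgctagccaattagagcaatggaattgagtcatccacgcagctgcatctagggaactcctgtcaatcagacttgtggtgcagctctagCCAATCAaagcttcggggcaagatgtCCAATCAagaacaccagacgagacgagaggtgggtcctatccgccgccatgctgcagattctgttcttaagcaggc
Zfp866: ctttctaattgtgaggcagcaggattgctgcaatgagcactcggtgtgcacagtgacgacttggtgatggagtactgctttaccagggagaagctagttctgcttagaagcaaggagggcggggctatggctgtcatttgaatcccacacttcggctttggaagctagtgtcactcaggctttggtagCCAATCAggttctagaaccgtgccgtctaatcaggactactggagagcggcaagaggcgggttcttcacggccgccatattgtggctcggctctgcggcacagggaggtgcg
Zfp963: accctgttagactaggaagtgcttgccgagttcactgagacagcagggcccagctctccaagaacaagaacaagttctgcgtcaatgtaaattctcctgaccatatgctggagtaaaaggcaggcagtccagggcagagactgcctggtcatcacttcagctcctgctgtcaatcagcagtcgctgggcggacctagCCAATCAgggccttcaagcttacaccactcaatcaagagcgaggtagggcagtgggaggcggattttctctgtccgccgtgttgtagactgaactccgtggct
Zfp800: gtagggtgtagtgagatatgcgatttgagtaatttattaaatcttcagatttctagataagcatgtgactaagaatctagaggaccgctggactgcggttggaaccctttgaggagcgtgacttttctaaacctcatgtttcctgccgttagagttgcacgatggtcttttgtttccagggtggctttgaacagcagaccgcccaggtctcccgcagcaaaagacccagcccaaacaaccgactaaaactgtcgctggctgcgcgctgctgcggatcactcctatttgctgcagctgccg

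Zfp869 held 3 matches to CCAATCA, Zfp868 held 2, Zfp931, Zfp866 and Zfp963 held 1 each and Zfp800 held 0. The windows held 3 CpG dinucleotides in Zfp931, 6 in Zfp868, 8 in Zfp869, 13 in Zfp866, 9 in Zfp963 and 14 in Zfp800. The windows of Zfp866, Zfp868 and Zfp869 also share CCGCCAT near the start of the gene, a motif searched after the windows had been read. On either strand, it was present in 15 windows of the family (12.8%) and in 5.41% of the windows of protein-coding genes. A match is a description of these letters and does not show that a factor was bound.

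Signals are linear and had the same trimmed mean on each array. A signal below the median of all probe sets of its array (75.8 in KO lipid A and 74.8 in WT lipid A, and 84.2 in KO vehicle and 65.1 in WT vehicle) was read as background. By this measure, 84 of the 133 genes (63.2%) were at or above the median on all 4 arrays, 22 on none and 27 on 1 to 3. The share for Zfp1 to Zfp599 genes was 62.8% and for all genes 49.7%. The family was thus widely expressed at a low to moderate level, with a median signal of 163 in KO lipid A and 159 in WT lipid A, and 171 in KO vehicle and 199 in WT vehicle. Over all genes, the median was 128 in KO lipid A and 122 in WT lipid A, and 146 in KO vehicle and 118 in WT vehicle, so that the family had its highest median on the array on which all genes had their lowest.

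**Figure D1:**
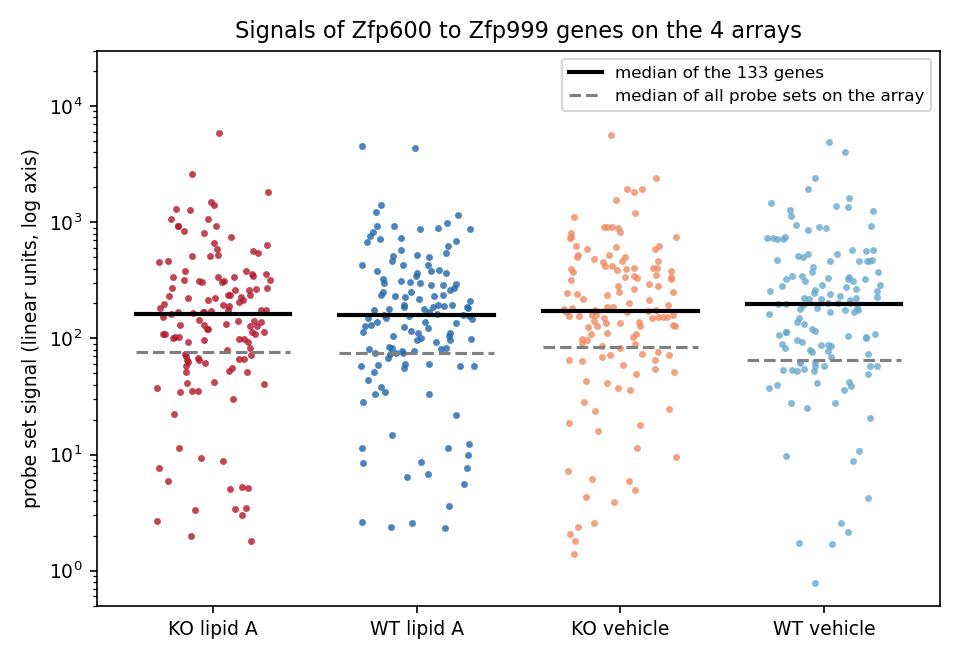
Signal of each of the 133 genes (points, linear signal on a log axis) on the 4 arrays, with the median of the 133 genes (black line) and the median of all probe sets of the array (dashed line). The medians of the genes run from 159 in WT lipid A to 199 in WT vehicle, and 22 genes lie below the dashed line on every array.

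The brightest gene was Zfp622, whose protein is a factor in the assembly of the large ribosomal subunit and has no KRAB domain. Its signal was 5872 in KO lipid A and 4383 in WT lipid A, and 5648 in KO vehicle and 4959 in WT vehicle. Zfp991 followed with 2602 in KO lipid A and 4536 in WT lipid A, and 2391 in KO vehicle and 4064 in WT vehicle. Of these brightest genes, Zfp991 was the one with lower signals in KO under both treatments. Zfp655, whose protein binds the signalling protein Vav, had 1812 in KO lipid A and 1421 in WT lipid A, and 1926 in KO vehicle and 2404 in WT vehicle. Zfp871, Zfp715 and Zfp638, the last of which encodes a large nuclear protein of RNA and chromatin control, ranged between 878 and 1946 over the 4 arrays.

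Setdb1 itself gave 386 in KO lipid A and 521 in WT lipid A, and 346 in KO vehicle and 589 in WT vehicle, by the 1 of its 3 probe sets that reached the array medians. Whether this probe set covers the exons removed by Cre could not be settled, and it was therefore no check of the genotype labels. Trim28 gave 2567 in KO lipid A and 2694 in WT lipid A (1.05-fold lower), and 3484 in KO vehicle and 3070 in WT vehicle (1.13-fold higher). Its second probe set gave 1332 in KO lipid A and 1394 in WT lipid A, and 1644 in KO vehicle and 1346 in WT vehicle. Of 22 listed genes of the machinery through which KRAB proteins silence, 19 were measured, and their median log2 difference of KO over WT was 0.18 under lipid A and 0.068 under vehicle. Over 2-fold, 1 of the 19 was higher and 0 lower in KO under lipid A (against 10.6% and 10.3% of all genes). Under vehicle 2 were higher (against 11.1%), Atf7ip and Cbx3, the latter with a WT signal below the array median. Hells was the 1 lower gene under vehicle (against 6.17%). The gene higher under both treatments (against 2.8% of all genes) was Atf7ip, which encodes the partner that keeps Setdb1 stable in the nucleus. It gave 1233 in KO lipid A and 559 in WT lipid A (2.21-fold higher), and 2205 in KO vehicle and 1086 in WT vehicle (2.03-fold higher).

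The arrays also differed in markers of other cells. The summed signal of 5 B cell markers was 4986 in KO lipid A and 2239 in WT lipid A, and 5430 in KO vehicle and 2295 in WT vehicle, and that of 6 markers of resident large peritoneal macrophages was 3076 in KO lipid A and 507 in WT lipid A, and 3180 in KO vehicle and 497 in WT vehicle. The summed signal of 4 T and NK cell markers lay between 285 and 324 on the KO arrays and between 92.1 and 117 on the WT arrays. Many of these signals were background, since Cd3e reached the array median on 1 array, Cd3g and Cd8b1 on 2 and Ncr1 on 0. Ncr1 was lower in KO under both treatments. The summed signal of 5 neutrophil markers lay between 812 and 870 on the KO arrays and between 1856 and 1930 on the WT arrays. Single markers did not all follow their sum. Most of the neutrophil sum was S100a8, with 676 in KO lipid A and 1721 in WT lipid A, and 569 in KO vehicle and 1727 in WT vehicle. Camp was also lower in KO under both treatments, whereas Ngp was higher under both and S100a9 and Ltf were higher under vehicle. Most signals of these other neutrophil markers were background, since Camp reached the array median on 2 arrays, Ngp and Ltf on 1 each and S100a9 on 0. Among the B cell markers, Cd22 was lower in KO under both treatments. The 6 macrophage markers summed to between 142091 and 149575 on the KO arrays and to between 176928 and 187557 on the WT arrays, and every one of them was above the array median on each array. The part of these cells in the differences below was not tested. In RNA of whole cultures, fewer cells of a type and less RNA per cell cannot be told apart.

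Under lipid A, the family as a whole did not stand higher in KO. A gene was counted in a comparison when its higher signal reached the median of that array, which 105 of the 133 genes did. Of these, 7 were over 2-fold higher in KO than in WT (6.67%, against 10.6% of all genes) and 11 were over 2-fold lower (10.5%, against 10.3% of all genes). The median log2 difference of KO over WT was 0.0021 for the family and −0.013 for all genes. With the arrays centred on their medians it was −0.016 for the family and −0.031 for all genes. At 1.5-fold 21 genes were higher (20.0%, against 17.8%) and 19 lower (18.1%, against 19.1%), and at 3-fold 2 were higher (1.90%, against 6.35%) and 5 lower (4.76%, against 5.73%). Log2 differences of probe sets of 1 gene, read on the same arrays, had an SD of 0.38 over 22 genes of the family and 0.41 over all genes. This spread between probe sets holds no variation between arrays or cultures and is not the error of a difference.

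Among genes with both signals at or above the median, 4 were over 2-fold higher in KO under lipid A. Zfp950 gave 213 in KO lipid A and 82.6 in WT lipid A (2.57-fold), against 282 in KO vehicle and 338 in WT vehicle. Zfp948 gave 196 in KO lipid A and 84.1 in WT lipid A (2.33-fold), against 251 in KO vehicle and 218 in WT vehicle. In both genes the signal in WT lipid A was the lowest of the 4 and lay just above the median of its array. A second probe set of Zfp950 gave 173 in KO lipid A and 115 in WT lipid A, and 139 in KO vehicle and 103 in WT vehicle. Zfp748 gave 335 in KO lipid A and 159 in WT lipid A (2.11-fold), with 330 in KO vehicle and 342 in WT vehicle, so that here too 1 array stood below the other three. Zfp952 gave 263 in KO lipid A and 129 in WT lipid A (2.04-fold) and ran the other way under vehicle, with 149 in KO and 222 in WT. Zfp939, the next by size, gave 175 in KO lipid A and 93.1 in WT lipid A (1.88-fold), and 90.1 in KO vehicle and 113 in WT vehicle. The remaining 3 genes counted as over 2-fold higher (Zfp821, Zfp827 and Zfp956) had a WT signal below the array median.

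Of the 11 genes over 2-fold lower in KO under lipid A, 4 had both signals at or above the median. Zfp688 gave 80.1 in KO lipid A and 232 in WT lipid A (2.89-fold lower), against 318 in KO vehicle and 259 in WT vehicle. Zfp704, which is not a KRAB gene, gave 212 in KO lipid A and 582 in WT lipid A (2.74-fold lower), and 920 in KO vehicle and 1279 in WT vehicle. Its second probe set gave 116 in KO lipid A and 263 in WT lipid A, and 211 in KO vehicle and 349 in WT vehicle, in the same direction as the first under both treatments. Zfp647 gave 103 in KO lipid A and 229 in WT lipid A (2.22-fold lower), and Zfp788 gave 92.6 in KO lipid A and 193 in WT lipid A (2.09-fold lower), while their signals under vehicle differed by 1.21-fold and 1.05-fold. For the remaining 7 genes the KO signal was below the array median, so that their folds are bounds. An example is Zfp870, with 3.39 in KO lipid A and 111 in WT lipid A, which is at least 1.46-fold lower, against 137 in KO vehicle and 77.5 in WT vehicle (1.76-fold higher).

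Under vehicle, 105 genes were again counted. Of these, 4 were over 2-fold higher in KO than in WT (3.81%, against 11.1% of all genes) and 6 were over 2-fold lower (5.71%, against 6.17% of all genes). The median log2 difference of KO over WT was −0.0062 for the family, 0.0062 for Zfp1 to Zfp599 genes and 0.097 for all genes. At 1.5-fold 16 genes were higher (15.2%, against 20% of all genes) and 15 lower (14.3%, against 11.3%), and at 3-fold 1 was higher (0.952%, against 6.28%) and 3 were lower (2.86%, against 3.65%). The vehicle arrays differed in their medians by 0.37 on the log2 scale. With the arrays centred on their medians, 2 genes of the family were over 2-fold higher (1.89%, against 7.54% of all genes) and 14 lower (13.2%, against 10.4%). Centring took the median of the family to −0.38 and that of all genes to −0.27. With quantile normalization 2 were higher (1.89%, against 8.29%) and 9 lower (8.49%, against 7.51%). The median of the family minus that of all genes was −0.10 under the deposited scaling and lay between −0.20 and −0.088 over all settings tried.

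None of the 4 genes over 2-fold higher in KO under vehicle had both signals at or above the median. The largest difference among genes that did was that of Zfp697, with 168 in KO vehicle and 86.9 in WT vehicle (1.93-fold), and Zfp707, Zfp672, Zfp661 and Zfp870 followed with 1.87-fold, 1.86-fold, 1.80-fold and 1.76-fold. None of these last 4 was higher in KO under lipid A. Zfp707 gave 154 in KO lipid A and 187 in WT lipid A, and Zfp672 gave 274 in KO lipid A and 290 in WT lipid A. Zfp661 gave 66.5 in KO lipid A, below the array median, and 150 in WT lipid A.

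All 4 genes of the family that were over 2-fold lower in KO under vehicle with both signals at or above the median had their highest signal on the WT vehicle array. Zfp760 gave 97.2 in KO vehicle and 312 in WT vehicle (3.21-fold lower), against 168 in KO lipid A and 179 in WT lipid A. Zfp995 gave 487 in KO vehicle and 1383 in WT vehicle (2.84-fold lower), against 635 in KO lipid A and 676 in WT lipid A, and a second probe set of it gave 367 in KO vehicle and 449 in WT vehicle. Zfp931 gave 460 in KO vehicle and 1240 in WT vehicle (2.69-fold lower), and it was also lower under lipid A, with 468 in KO and 714 in WT (1.53-fold). The probe set of Zfp931 is of the kind (_x_at) whose probes can also match other transcripts, so that its signal may hold related genes. Zfp961 gave 103 in KO vehicle and 221 in WT vehicle (2.14-fold lower), and 114 in KO lipid A and 140 in WT lipid A. Zfp954, the next by size, gave 175 in KO vehicle and 332 in WT vehicle (1.90-fold lower) and 313 in KO lipid A and 233 in WT lipid A (1.34-fold higher).

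The 84 genes at or above the median on all 4 arrays give the family free of background signals. This condition cannot show a rise in KO from background or a fall in KO to background. It left out all 4 genes over 2-fold higher in KO under vehicle and 3 of the 7 under lipid A. Among them the median log2 difference of KO over WT was 0.058 under lipid A and −0.028 under vehicle, against −0.017 and 0.070 for the 9047 genes of the array that met the same condition. Over 2-fold, 4 were higher (4.76%, against 3.24%) and 4 lower (4.76%, against 3.82%) under lipid A, and 0 were higher (against 2.94%) and 4 lower (4.76%, against 2.1%) under vehicle. At 1.5-fold under lipid A, 14 were higher (16.7%, against 9.87%) and 9 lower (10.7%, against 12.9%), and under vehicle 7 were higher (8.33%, against 11%) and 11 lower (13.1%, against 6.92%). The 108 Zfp1 to Zfp599 genes that met the condition had 22 higher (20.4%) and 11 lower (10.2%) at 1.5-fold under lipid A, shares near those of the family, and 13 higher and 7 lower under vehicle.

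**Figure D2:**
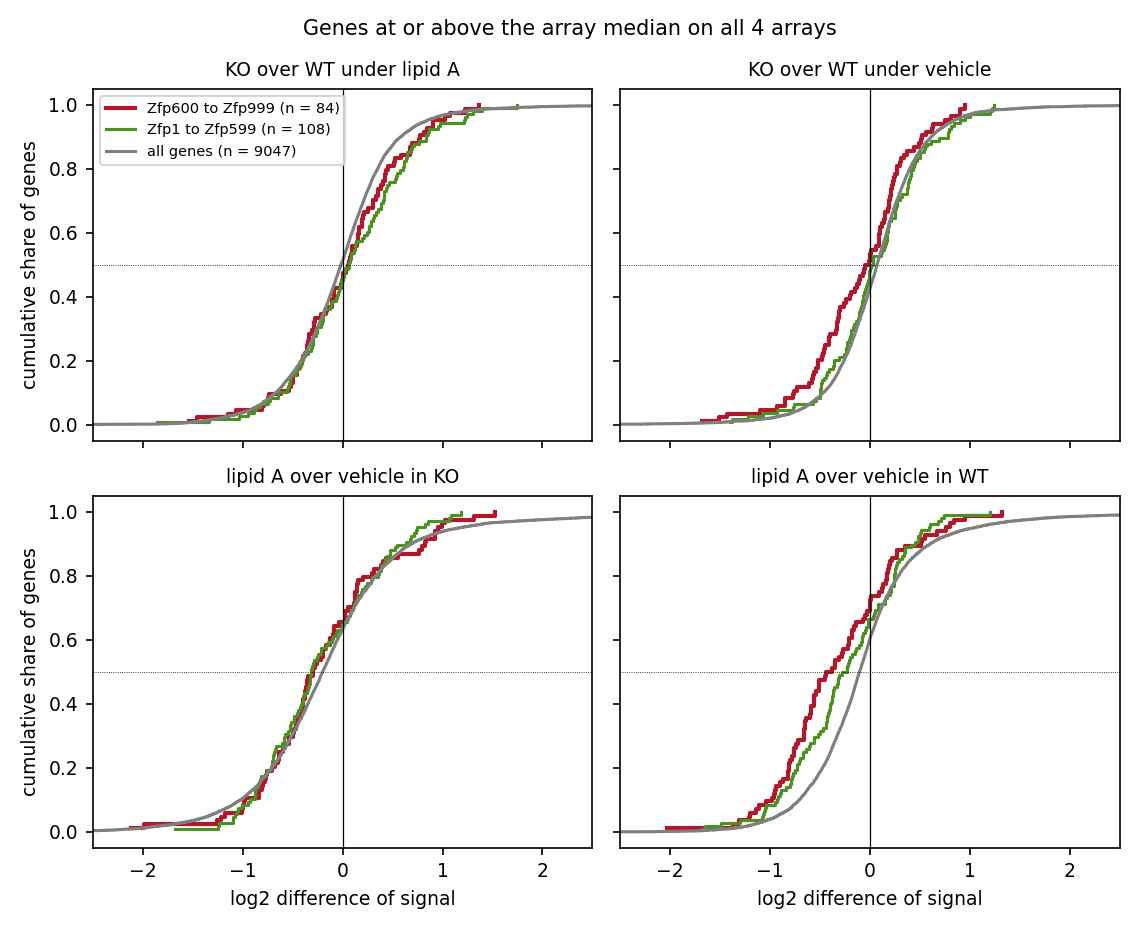
Cumulative share of genes (y axis) by log2 difference of signal (x axis) for the 84 genes Zfp600 to Zfp999 (red), the 108 genes Zfp1 to Zfp599 (green) and all 9047 genes (grey) at or above the array median on all 4 arrays, in the 4 comparisons. The red line lies left of the grey line over most of its course for KO over WT under vehicle (medians −0.028 and 0.070) and for lipid A over vehicle in WT (medians −0.41 and −0.10), which share the WT vehicle array.

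The genotype comparisons under lipid A and under vehicle use different arrays, so that genes that differed the same way in both can be counted. Of the 100 genes counted under both treatments, 0 were over 2-fold higher in KO in both (against 2.8% of all genes) and 1, Zfp668, was over 2-fold lower in both (against 1.45%). Zfp668, whose human counterpart acts in DNA repair, gave 22.3 in KO lipid A and 99.9 in WT lipid A, and 11.3 in KO vehicle and 120 in WT vehicle. Both KO signals were below the array medians, so that the differences are at least 1.32-fold and at least 1.42-fold, and the second probe set ran the other way under vehicle, with 119 in KO and 40.5 in WT. Across the 84 genes on all 4 arrays, the log2 differences of the 2 treatments had a Pearson r of 0.14 and a Spearman rho of 0.17, and 47 genes (56.0%) had the same sign. Across all 9047 genes r was 0.38 and rho 0.27 with 59.6% of the same sign, and across the 108 Zfp1 to Zfp599 genes r was 0.41 and rho 0.37 with 64.8%. These are correlations across genes that share their arrays and are no replicates.

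**Figure D3:**
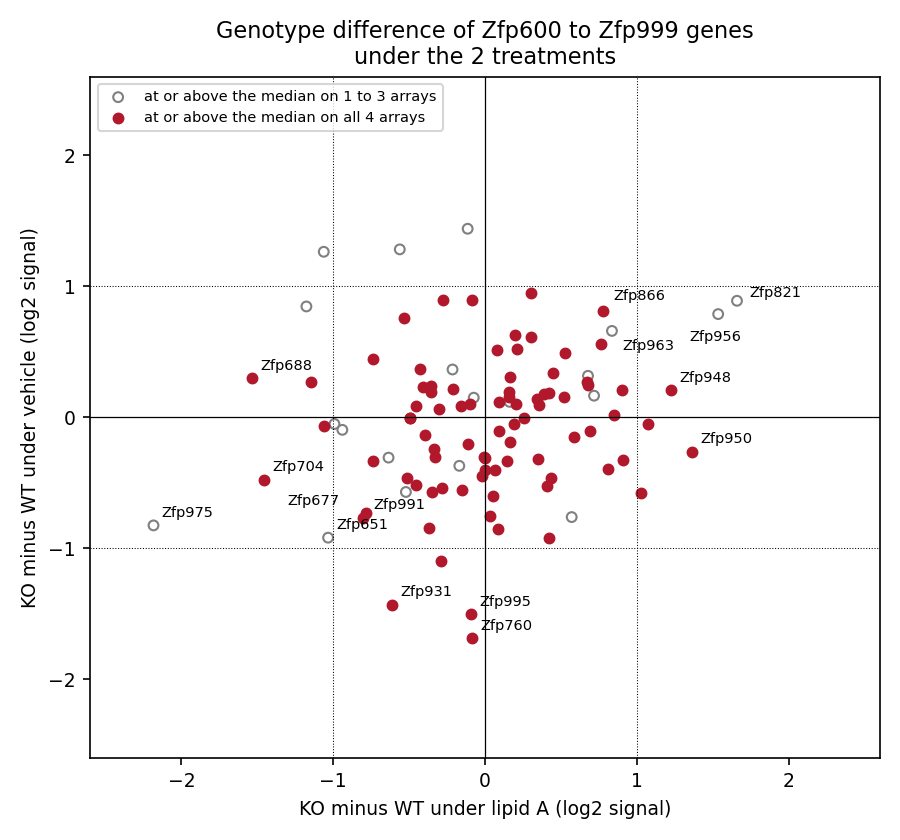
Log2 difference of signal, KO minus WT, under lipid A (x axis) and vehicle (y axis) for genes at or above the array median on all 4 arrays (filled) or on 1 to 3 arrays (open), with dotted lines at 2-fold. Of these genes, 104 are drawn and 7, all open, lie outside the axes, and no filled point lies beyond 2-fold in both.

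At 1.5-fold, 4 genes were higher in KO under both treatments (against 5.94% of all genes) and 6 were lower (against 3.82%). They are named because of this count, after their values had been seen. Zfp866 was the one of the 4 higher genes that reached the median on every array, with 237 in KO lipid A and 138 in WT lipid A (1.72-fold), and 468 in KO vehicle and 266 in WT vehicle (1.76-fold). Zfp963, its neighbour on chromosome 8, gave 99.0 in KO lipid A and 55.4 in WT lipid A (at least 1.32-fold), and 161 in KO vehicle and 102 in WT vehicle (1.58-fold). Zfp821 gave 137 in KO lipid A and 43.5 in WT lipid A, and 108 in KO vehicle and 58.4 in WT vehicle. Zfp956 gave 96.8 in KO lipid A and 33.4 in WT lipid A, and 127 in KO vehicle and 73.4 in WT vehicle. Of these 4 genes, all but Zfp866 had at least 1 WT signal below the array median.

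Of the 6 lower genes, Zfp991, Zfp677 and Zfp931 reached the median on every array. Zfp991, the brightest of them, was 1.74-fold lower in KO under lipid A and 1.70-fold lower under vehicle, and its second bright probe set gave 467 in KO lipid A and 609 in WT lipid A, and 374 in KO vehicle and 566 in WT vehicle. Zfp677 gave 224 in KO lipid A and 386 in WT lipid A (1.72-fold lower), and 451 in KO vehicle and 750 in WT vehicle (1.66-fold lower). The signals of Zfp677 were also lower with lipid A than with vehicle in both genotypes. In Zfp651, Zfp975 and Zfp668 both KO signals were below the array medians. Zfp651 gave 51.3 in KO lipid A and 105 in WT lipid A, and 54.2 in KO vehicle and 103 in WT vehicle, and Zfp975 gave 35.3 in KO lipid A and 160 in WT lipid A, and 49.3 in KO vehicle and 87.3 in WT vehicle.

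**Figure D4:**
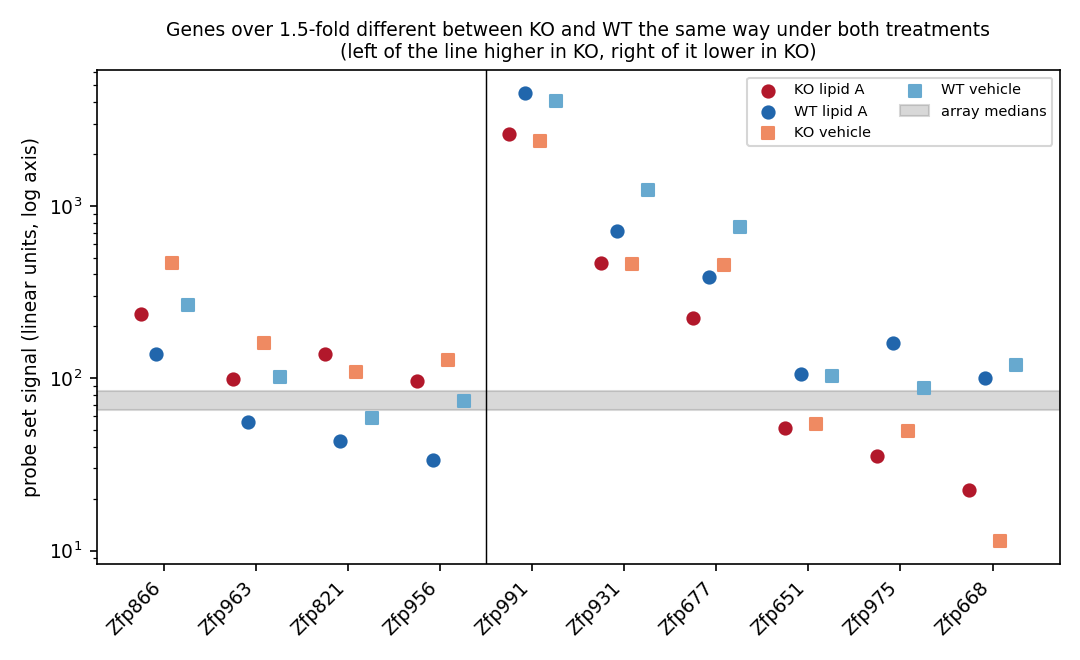
Signal (linear, log axis) on the 4 arrays of the 10 genes over 1.5-fold different between KO and WT in the same direction under both treatments, 4 higher and 6 lower in KO, with the range of the array medians in grey. Circles are lipid A and squares vehicle, and Zfp991, Zfp931, Zfp677 and Zfp866 lie above the grey band on every array.

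Genes with known targets among retroviruses were also looked up after their values had been seen. Zfp809, which silences murine leukemia virus through Trim28, gave 542 in KO lipid A and 290 in WT lipid A (1.87-fold higher), and 591 in KO vehicle and 512 in WT vehicle (1.16-fold higher). Zfp932, a repressor of endogenous retroviruses in mouse embryonic stem cells, gave 237 in KO lipid A and 236 in WT lipid A, and 353 in KO vehicle and 467 in WT vehicle (1.32-fold lower). Zinc finger genes with a KRAB or SCAN domain and names of another kind (Zkscan, Zscan, Rsl1 and others) were listed for comparison. Of 26, 24 were on the array and 17 were counted in the genotype comparisons, with a median log2 difference of −0.12 under lipid A and 0.10 under vehicle 1 gene over 2-fold higher under each treatment (against 10.6% of all genes under lipid A and 11.1% under vehicle) and 1 lower under vehicle (against 6.17%). Each of these 3 rests on a signal below the array median, Zscan29 with 2.96 in WT lipid A, Zik1 with 21.1 in WT vehicle and Rslcan18 with 21.8 in KO vehicle.

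Runs of neighbouring genes differed in how far their genes went 1 way. In the run of 13 genes on chromosome 17 from Zfp677 to Zfp945, 11 were at or above the median on all arrays, and their median log2 difference of KO over WT was 0.0014 under lipid A, with 5 of 11 below 0 (against 51.3% of all genes on all arrays), and −0.31 under vehicle, with 7 of 11 below 0 (against 42.7%). This run holds Zfp948 (2.33-fold higher in KO with lipid A), Zfp677 (1.72-fold lower), and Zfp760 and Zfp995, the genes most reduced in KO under vehicle among those with both signals at or above the median. In the run of 5 genes on chromosome 8 from Zfp930 to Zfp866, 4 reached the median on all arrays, with a median difference of 0.42 for lipid A and of −0.49 for vehicle, where 3 of 4 were below 0 (against 42.7%). Of these, Zfp866 was higher in KO under vehicle, whereas Zfp868 gave 219 in KO vehicle and 324 in WT vehicle, Zfp869 gave 250 in KO and 345 in WT, and Zfp930 gave 155 in KO and 223 in WT. The promoter windows of Zfp866, Zfp868 and Zfp869 printed above share CCAATCA and CCGCCAT, while these genes differed in direction. In the run of 6 genes on chromosome 17 from Zfp871 to Zfp763, 4 reached the median on all arrays. Of these, 2 of 4 were below 0 under lipid A (against 51.3%) and 4 of 4 under vehicle (against 42.7%), where the median was −0.32. A second run on chromosome 8, Zfp709 to Zfp961, had medians of −0.29 (lipid A) and −0.56 (vehicle) over 3 genes, all below 0 under both treatments (against 51.3% and 42.7%). The medians of the other runs under vehicle were −0.051 (Zfp712 to Zfp748), 0.040 (Zfp786 to Zfp746), 0.15 (Zfp975 to Zfp819) and 0.18 (Zfp771 to Zfp646). These runs of few genes were not tested. Over all 8 runs, the medians lay between −0.29 and 0.52 under lipid A and between −0.56 and 0.18 under vehicle.

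**Figure D5:**
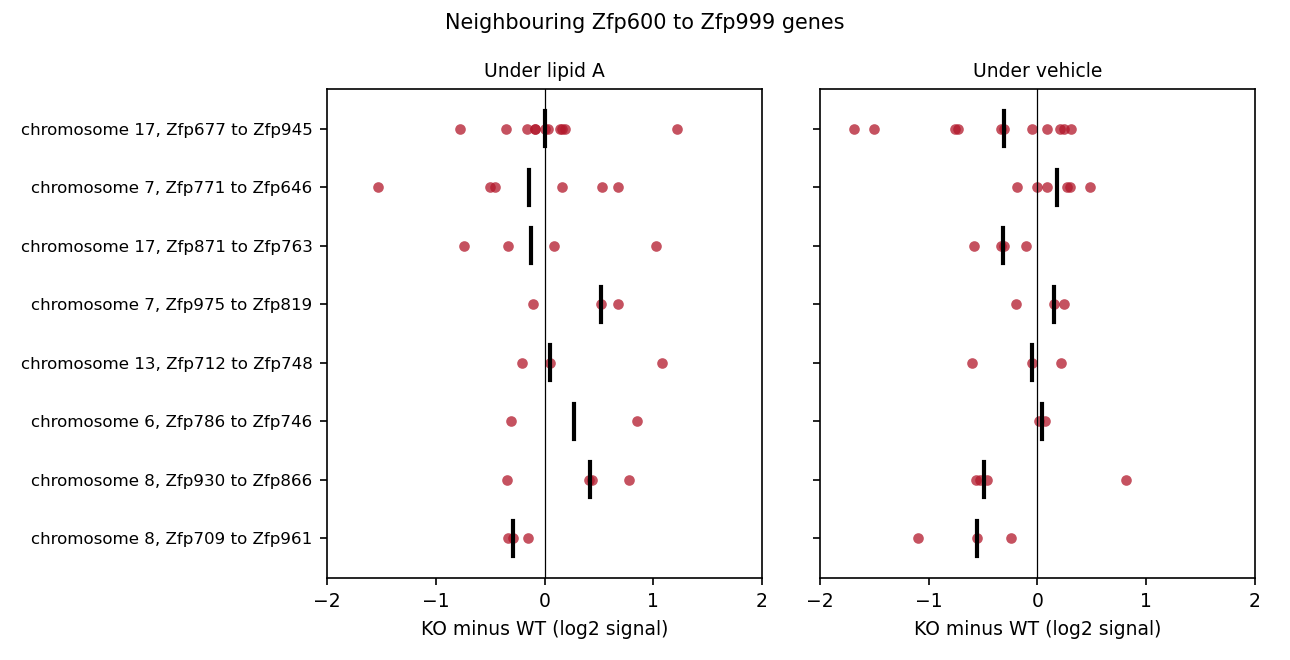
Log2 difference of signal, KO minus WT, under lipid A (left panel) and vehicle (right panel) for the genes at or above the median on all 4 arrays (points) in each of the 8 runs of neighbouring genes, with the median of the run as a black line. In the longest run, on chromosome 17, the points lie on both sides of 0 under both treatments, with 7 of 11 below 0 under vehicle.

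The promoter windows offered a further way to divide the family. Of the 84 genes on all arrays, 74 had a window, and they were split at the median of 13 CpG, a division chosen after the values had been seen and carrying no test. The 30 genes with fewer CpG had a median log2 difference of KO over WT of 0.047 under lipid A and −0.32 under vehicle, where 20 of 30 were below 0 (66.7%). The 44 genes with more CpG had 0.071 under lipid A and 0.076 under vehicle, where 20 of 44 were below 0 (45.5%, against 42.7% of all genes on all arrays). Over all genes of the array, the median under vehicle was 0.067 for 1467 genes with fewer CpG and 0.071 for 5975 genes with more, so that the medians of the divisions lay further apart within the family than over all genes. Divided by the CCAATCA motif, the 20 genes with a match had a median of −0.36 under vehicle and the 54 without had 0.076, against 0.084 for 770 genes of the array with a match and 0.069 for 6672 without. CpG count and motif overlap as divisions, and their separate parts were not tested.

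The family had lower signals with lipid A than with vehicle in both genotypes, as had all genes to a lesser degree. In KO cells 6 genes of 102 counted were over 2-fold higher with lipid A than with vehicle (5.88%, against 11.2% of all genes) and 12 were lower (11.8%, against 16%), and in WT cells 3 of 105 were higher (2.86%, against 11.8%) and 11 lower (10.5%, against 8.94%). With the arrays centred on their medians, the split in KO cells was 10 higher (9.80%, against 13.1% of all genes) and 10 lower (9.80%, against 13.2%). With quantile normalization it was 13 higher (12.6%, against 12.6%) and 10 lower (9.71%, against 14.2%). The median log2 difference of lipid A over vehicle was −0.35 in KO cells, against −0.20 for all genes, and −0.35 in WT cells, against −0.082 for all genes. In WT cells 38 genes were over 1.5-fold lower with lipid A (36.2%, against 18.9%), and in KO cells 31 were (30.4%, against 29.7%). Over 1.5-fold higher were 14 in KO cells (13.7%, against 17.7%) and 11 in WT cells (10.5%, against 18.2%). At 3-fold 2 were higher (1.96%, against 7.23%) and 5 lower (4.90%, against 8.05%) in KO cells, and 1 was higher (0.952%, against 7.12%) and 2 were lower (1.90%, against 4.39%) in WT cells. The median of the family minus that of all genes lay between −0.16 and −0.059 in KO cells and between −0.29 and −0.12 in WT cells over all settings tried. For Zfp1 to Zfp599 genes the medians were −0.32 in KO cells and −0.23 in WT cells.

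The responses of the 2 genotypes use different arrays. Across the 84 genes on all arrays, 42 were lower with lipid A in both genotypes and 13 (15.5%) higher in both, and the log2 responses had an r of 0.36 and a rho of 0.30. Across all 9047 genes, 48.1% were lower and 24.5% higher in both, with an r of 0.73 and a rho of 0.59. Among the same divisions of the promoters, the WT response had a median of −0.66 for the 30 genes with fewer CpG, 25 of them below 0 (83.3%, against 60.3% of all genes on all arrays), and of −0.21 for the 44 with more. In KO cells these medians were −0.40 and −0.26. The WT response and the genotype difference under vehicle both contain the WT vehicle array.

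Among genes with both signals at or above the array medians, the largest rise in both genotypes was that of Zfp800. It gave 1500 in KO lipid A and 521 in KO vehicle (2.88-fold higher), and 1147 in WT cells with lipid A and 460 with vehicle (2.49-fold higher). Of its 7 probe sets, 6 were higher with lipid A in KO cells and 7 in WT cells, so that the rise did not hang on 1 probe set. Zfp719 gave 667 in KO lipid A and 268 in KO vehicle (2.49-fold higher), and 466 in WT cells with lipid A and 241 with vehicle (1.93-fold higher). Its second probe set gave 187 in KO lipid A and 69.2 in KO vehicle, but ran the other way in WT cells, with 77.9 with lipid A and 101 with vehicle. Zfp869 gave 509 in KO lipid A and 250 in KO vehicle (2.03-fold higher), but 377 in WT cells with lipid A and 345 with vehicle (1.09-fold higher). For Zfp975, the third highest in WT cells, both KO signals were below the array medians.

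On the same condition, the largest falls were those of Zfp704 in KO cells and Zfp950 in WT cells. Zfp704 was 4.33-fold lower with lipid A than with vehicle in KO cells and 2.20-fold lower in WT cells. Zfp950 was 1.32-fold lower in KO cells and 4.09-fold lower in WT cells, although its second probe set gave 173 in KO lipid A and 139 in KO vehicle, and 115 in WT cells with lipid A and 103 with vehicle. Zfp688 was 3.98-fold lower in KO cells and 1.12-fold lower in WT cells, and Zfp647 was 2.38-fold lower in KO cells and 1.12-fold higher in WT cells. Zfp948 was 1.28-fold lower in KO cells and 2.59-fold lower in WT cells. Zfp652, whose human counterpart works with the corepressor CBFA2T3, gave 229 in KO lipid A and 407 in KO vehicle (1.78-fold lower), and 296 in WT cells with lipid A and 732 with vehicle (2.47-fold lower). Zfp704 and Zfp652 were thus among the 42 of 84 genes on all arrays that were lower with lipid A in both genotypes (50%, against 48.1% of all genes). Zfp688 and Zfp647 were over 2-fold lower in KO cells alone.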

How the data were processed

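Gene expression was measured on Affymetrix GeneChip mouse arrays, 1 for each of 4 conditions. The authors deposited 1 table of intensity values for 45101 probe sets on a linear scale. Which software made them is not given in the sources used, and a scaling of each array was inferred from the mean of 500.004 after trimming 2% at each end. A probe set median and not a detection call served as the limit of background, since no calls were used here. After removal of 64 controls, 34945 probe sets had 1 gene symbol and gave 18193 genes, each read from its brightest probe set by mean log2 signal over the arrays.

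Signals were compared as log2 differences with Python 3.11.15, pandas 2.3.3 and numpy 2.4.6. Folds over 2 and over 1.5 were counted. A fold with 1 signal below its array median is given as a lower bound against that median. With 1 array per condition no test was made, and the number of arrays limits the precision. The counting step was tried on simulated arrays with noise of SD 0.3 (log2) and set rises in KO of genes above background. Falls and genes near background were not simulated, so that it does not show how reliable the counts here are. Genes were named by size of difference, brightness and lipid A response (up to 12 over 2-fold in both treatments, the 5 largest of each direction per genotype comparison, the 6 brightest and the 3 largest responses of each direction), and others are marked as chosen later. The genes and lists were chosen with earlier results of these data known. Alternatives were another scaling, filter, treatment of low signals, probe set or fold. Promoter windows are from RefSeq (GRCm38.p6), the first listed for each gene, 22 of the 117 genes having several.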

Additional observations from a re-analysis of the deposited data

Results flagged for a closer look

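In 5 of the genes named by rule and with all signals at or above the array medians, a difference had opposite signs in the 2 genotypes or under the 2 treatments and was over the spread between probe sets of a gene on both sides. Over all 84 genes of the family on all arrays, 8 showed such a pattern (9.52%, against 4.96% of all genes on all arrays), and the 5 had been named for the size of 1 of these same differences or of a related one. None of these differences between differences was tested, since each rests on 4 single arrays. Zfp952 had a log2 difference of KO over WT of 1.03 under lipid A and −0.58 under vehicle, and of lipid A over vehicle of 0.83 in KO cells and −0.78 in WT cells. Zfp954 had 0.42 under lipid A and −0.92 under vehicle for KO over WT, and 0.84 in KO cells and −0.51 in WT cells for lipid A over vehicle. Zfp869 had 0.43 under lipid A and −0.46 under vehicle for KO over WT. Zfp760 had a log2 difference of lipid A over vehicle of 0.79 in KO cells and −0.81 in WT cells, and Zfp672 had −0.47 in KO cells and 0.51 in WT cells.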

How the results depend on the processing

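No paired analysis was possible because the labels give no replicate numbers and each condition has 1 array, and for that second reason no array could be left out. An additive fit of genotype and treatment, which would take their interaction as error, was not run. Of 122 values obtained under the alternatives, 66 stayed within the limit set for each. Within that limit, medians near 0 changed sign. The median of KO over WT under lipid A (0.0021) was −0.016 with centred arrays, −0.0078 with quantile normalization and −0.097 as the median over probe sets, and that under vehicle (−0.0062) was 0.012 with low signals raised and 0.0060 without _x_at and _s_at probe sets. The other 56 are as follows, as genes over 2-fold unless a fold is named. With the arrays centred on their medians, KO over WT under vehicle had 2 higher, 14 lower and a median of −0.38 (against 7.54%, 10.4% and −0.27 for all genes). Lipid A over vehicle had 10 higher and a median of −0.20 in KO cells (against 13.1% and −0.046). In WT cells it had 23 lower (21.7%, against 12.2%) and a median of −0.53 (against −0.28), and 3 genes were lower in KO under both treatments. Quantile normalization gave 2 higher (against 8.29% of all genes) and a median of −0.14 (against 0.056) for KO over WT under vehicle. For lipid A in KO cells it gave 13 higher (12.6%, against 12.6%), 10 lower (9.71%, against 14.2%) and a median of −0.20 (against −0.14). This was the opposite balance to the 6 and 12 of the deposited scaling, and 3 genes were lower in KO under both treatments. With both signals required to reach the median, KO over WT had 4 higher and 4 lower under lipid A and 0 higher under vehicle, lipid A gave 3 higher and 6 lower in KO cells and 1 higher in WT cells, and 0 genes were lower under both treatments. With no filter, KO over WT had 14 higher and 19 lower under lipid A and 11 higher and 17 lower under vehicle, lipid A gave 13 higher and 21 lower in KO cells and 10 higher and 21 lower in WT cells, and 1 gene was higher and 3 lower under both treatments. With low signals raised to the array median, KO over WT had 4 higher and 5 lower under lipid A and 1 higher under vehicle, lipid A gave 3 higher and 7 lower in KO cells, and 0 genes were lower under both treatments. The median over probe sets of a gene gave 3 higher for lipid A in KO cells and a median of −0.21 for lipid A in WT cells. At 1.5-fold, KO over WT had 21 higher and 19 lower under lipid A, 16 higher and 15 lower under vehicle, and 4 higher and 6 lower under both, and lipid A gave 14 higher and 31 lower in KO cells and 11 higher and 38 lower in WT cells. At 3-fold, KO over WT had 2 higher and 5 lower under lipid A and 1 higher and 3 lower under vehicle, and lipid A gave 2 higher and 5 lower in KO cells and 1 higher and 2 lower in WT cells. Filters and folds change which genes are counted by construction, and the cause of the other shifts was not tested.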
